A study of Mus musculus with 8 samples.

Results

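GpC methylation was described at 5 mouse gene loci that were read more often per site than most of the genome: 2700054A10Rik, Gm41530, Gm41331, E030030I06Rik and 4931408C20Rik. A locus was the annotated gene with 1000 bp on each side, and all sites of all libraries within it were members. Together the 5 loci held 1918 distinct sites of 5365124 in the whole series, of which 1476 lay in 2700054A10Rik, 154 in 4931408C20Rik, 123 in E030030I06Rik, 89 in Gm41530 and 76 in Gm41331. The loci were chosen by their reads per site pooled over these libraries, so depth is given here as a description with no test.

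The cells were mouse embryonic fibroblasts (MEFs), sampled as control cells on day 0 or on day 1 of reprogramming induced by Etv2, a transcription factor of the ETS family known for its role in endothelial and blood development. On each day 2 libraries were made with the GpC methyltransferase M.CviPI (treated) and 2 without it (untreated), which gave 4 groups of 2 libraries from 250000 cells per sample. Nothing in the labels ties the replicates to separate cultures, and p-values then measure only the spread between these libraries, which may be technical. The labels used here also do not give the strain, the vector that carried Etv2 or the agent that induced it. The libraries held between 439527 and 1012656 sites and between 1693307 and 3577740 reads over those sites, with a median of 3 reads per site in every library. Of 12 fibroblast marker genes 1 was read at its ends in all 8 libraries, and of 8 endothelial and 5 blood markers none was, so the labelled cell type could not be checked at this depth.

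In NOMe-seq, M.CviPI adds a methyl group to the cytosine of GpC dinucleotides in open DNA, whereas DNA wrapped on nucleosomes or bound by proteins is protected, and the methyl groups are read by sequencing after bisulfite conversion. The level with the enzyme is therefore read as accessibility, and the level without it holds endogenous methylation and cytosines that bisulfite failed to convert. Sequences present in many copies in a genome are often called multicopy-like when reads from several copies are placed on 1 place in the assembly. Copy number was not measured in these libraries, and the name is used here for depth alone.

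All coordinates are on mm10, the build of the deposited files, and genes were taken from RefSeq's annotation of GRCm38.p6, the same assembly. 2700054A10Rik is a long non-coding RNA gene on the minus strand at chr17:13487021-13554094, and it overlaps the pseudogenes Gm8603 and Smok4a, the latter a copy of the sperm motility kinase family, and the small nuclear RNA gene Gm26375. Gm41530, a long non-coding RNA gene on the plus strand at chr17:13655846-13665688, is its nearest annotated neighbour above, 101752 bp away. Gm41331 is a long non-coding RNA gene on the plus strand at chr15:60141826-60187303 that overlaps no other annotated gene. E030030I06Rik is annotated as protein-coding on the minus strand at chr10:22113050-22149270 and overlaps the pseudogenes Gm19791 and Gm7678. 4931408C20Rik is annotated as protein-coding on the minus strand at chr1:26681801-26687460, inside the long non-coding RNA gene Gm31136. The annotation used here gives no exons, so sites were placed by their distance from the annotated start.

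The promoter windows of Gm41331 and 4931408C20Rik are shown because they were the member promoters in which most candidate sites were read with and without the enzyme. Both sequences are from RefSeq, GRCm38.p6, and run 5′ to 3′ on the strand of the gene from 250 bases before to 50 after a start. Gm41331 has more than 1 annotated start, and the window chr15:60141661-60141960 of the plus strand is shown. The window of 4931408C20Rik is chr1:26687411-26687710 of the minus strand. Capitals mark the cytosines covered in at least 1 library, printed as C where the cytosine is on the strand shown and as G where it is the cytosine opposite that G.
Gm41331: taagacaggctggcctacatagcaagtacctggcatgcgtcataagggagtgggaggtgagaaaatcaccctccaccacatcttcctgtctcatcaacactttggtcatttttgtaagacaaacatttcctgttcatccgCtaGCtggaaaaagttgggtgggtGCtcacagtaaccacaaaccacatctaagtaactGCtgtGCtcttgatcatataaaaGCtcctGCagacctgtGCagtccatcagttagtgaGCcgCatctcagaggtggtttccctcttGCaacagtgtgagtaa
4931408C20Rik: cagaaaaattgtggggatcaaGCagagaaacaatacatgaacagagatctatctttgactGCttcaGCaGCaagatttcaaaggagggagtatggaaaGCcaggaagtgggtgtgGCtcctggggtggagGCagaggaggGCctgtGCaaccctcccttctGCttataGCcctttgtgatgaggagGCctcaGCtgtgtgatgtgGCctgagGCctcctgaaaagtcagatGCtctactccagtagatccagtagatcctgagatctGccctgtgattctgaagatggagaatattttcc

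The covered sites were GpC cytosines not followed by G. Over all annotated promoter windows this held for 100% of covered sites in every library, between 6492 and 10239 sites each, and 0 were followed by G, so GpC cytosines that are also CpG cytosines were not seen there. In the Gm41331 window 20 of 29 such cytosines were covered, by 3218 reads in all, and in the 4931408C20Rik window 33 of 34 were, by 434 reads. The 300 bases before and after the starts of 2700054A10Rik and Gm41530 held 19 and 24 such cytosines, of which 0 were covered in either, and the E030030I06Rik window had 7 of 26 covered, by 29 reads, all of them in untreated libraries. The ETS-like motif CCGGAA, searched on both strands, was in 0 of the member windows and in 14.9% of all 32851 promoter windows, and its absence says only that these letters are not there.

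Depth lay in short stretches and not along whole genes. Over the 8 libraries 2700054A10Rik had 26.3 reads per site, rank 5 among the 5654 gene loci with at least 20 reads in every library. Gm41331 had 17.4 (rank 11), E030030I06Rik 11.7 (rank 24), Gm41530 4.89 (rank 51) and 4931408C20Rik 4.01 (rank 66). The median locus had 3.11 reads per site and the 99th percentile was 4.19. The name deeply read therefore fits 3 of the loci well, whereas 4931408C20Rik lay under the 99th percentile, had no site with more than 8 reads in any library and is kept here only by the rule.

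Sites with more than 10 reads in a library, joined over gaps of up to 500 bp, formed 272 stretches in the genome, and 4 of them lay in or at the members. In 2700054A10Rik 1 stretch of 2511 bp, chr17:13550660-13553170, from 924 to 3434 bp inside the gene, held 97.5% of the reads of the locus and 744 distinct sites, with up to 168 reads at a site. In Gm41331 a stretch of 207 bp, chr15:60141801-60142007, ran from 25 bp before to 181 bp after the annotated start and held 95.8% of the reads, with up to 42 at a site. In E030030I06Rik a stretch of 725 bp, chr10:22142332-22143056, from 6214 to 6938 bp inside the gene, held 95.9% of the reads, with up to 52 at a site. In Gm41530 a stretch of 229 bp, chr17:13654811-13655039, lay before the start (from -1035 to -807 bp), crossed the outer edge of the locus, and accounted for 49.7% of the reads of the locus. 4931408C20Rik had no such stretch, and 64% of its reads lay in the 1000 bp before its start.

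**Figure D1:**
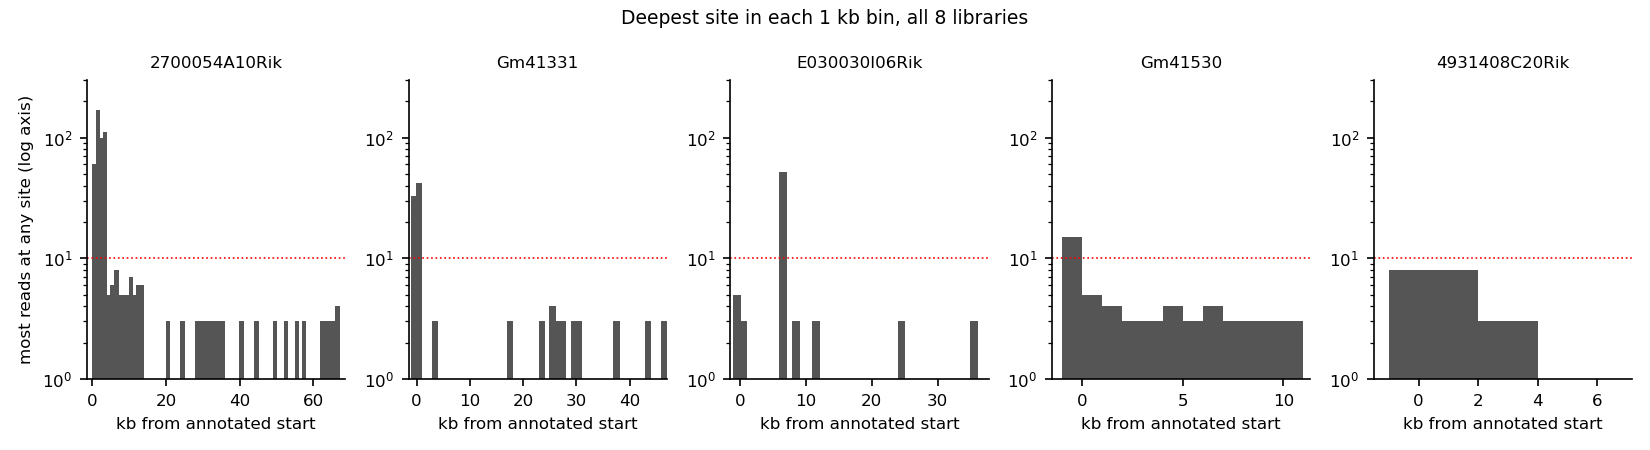
The most reads at any single site, in any of the 8 libraries, in each 1000 bp bin along the 5 loci, against distance from the annotated start in kb. The vertical axis is logarithmic and the dotted line marks 10 reads; 1 stretch passes it in 2700054A10Rik, Gm41331, E030030I06Rik and Gm41530, and none does in 4931408C20Rik, whose deepest site had 8 reads.

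Every locus was far more methylated with the enzyme than without it on both days. At 2700054A10Rik the pooled level, methylated reads over all reads of a library, was 2.20% and 2.25% in the untreated and 24.5% and 24.8% in the treated libraries of day 0. On day 1 it was 3.04% and 1.76% untreated and 26.5% and 27.2% treated. The treated libraries stood clear of the untreated ones, and the group means of day 0 were 24.7% ± 0.21 and 2.22% ± 0.04 (SD, n = 2). At E030030I06Rik, the protein-coding gene with the intragenic stretch, day 0 levels were 4.23% and 2.95% untreated and 26.8% and 29.0% treated. On day 1 they were 0.25% and 0.63% untreated and 27.3% and 30.1% treated. The untreated levels of the 2 days did not overlap, and the treated ones did. With 2 against 2 libraries, non-overlap gives an exact permutation p of 0.333 at best. The share of all loci without overlap was not counted, here or in later comparisons of the days.

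At Gm41331, whose stretch spans its start, day 0 levels were 1.82% and 5.68% untreated and 21.3% and 25.8% treated. On day 1 they were 1.02% and 0.58% untreated and 22.8% and 22.4% treated. Both day 1 untreated libraries were below both day 0 ones, by a margin smaller than the gap between the 2 day 0 libraries. At 4931408C20Rik the levels were 1.94% and 3.13% untreated and 23.5% and 22.1% treated on day 0. On day 1 they were 0.00% (0 of 133 reads, which allows up to 2.74%) and 0.33% untreated and 21.8% and 28.8% treated. At Gm41530, read least, they were 0.00% (0 of 39 reads, upper limit 9.03%) and 1.18% untreated and 15.2% and 22% treated on day 0. On day 1 they were 0.81% and 0.65% untreated and 31.8% and 18.6% treated, and the treated libraries of the 2 days overlapped. The upper limits are exact Clopper-Pearson 95% bounds and, as for all intervals here, leave out the spread between libraries. They take every count as a separate read. A read over several sites is counted at each, so the limits can be too low even for counting error.

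**Figure D2:**
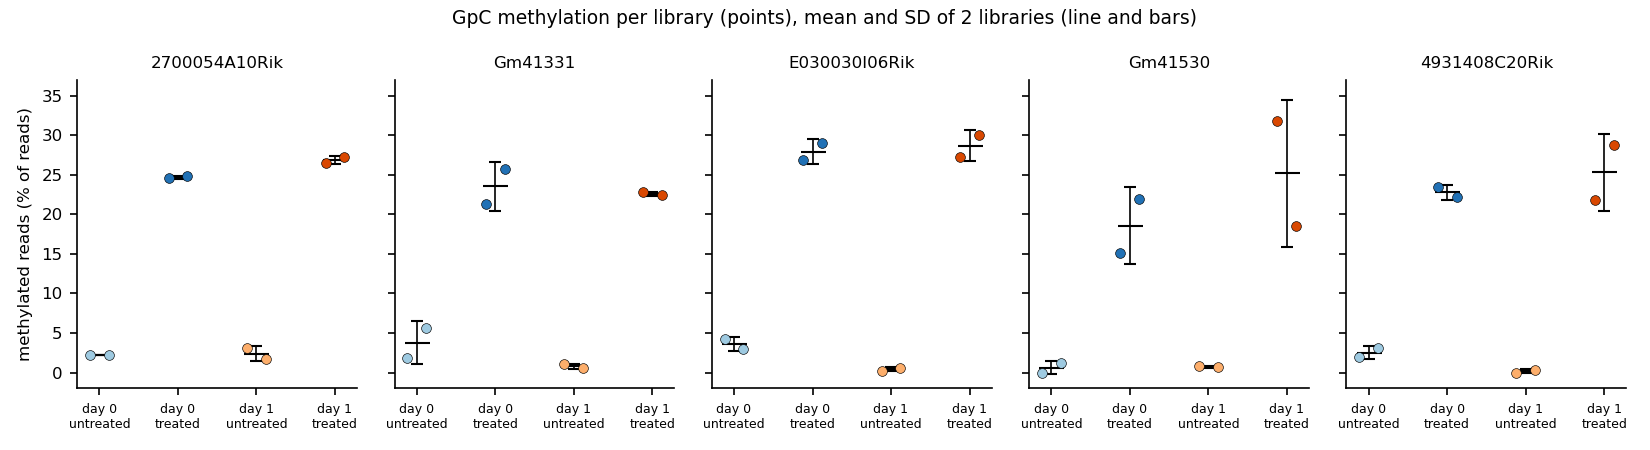
Pooled GpC methylation, in percent of reads, of the 5 loci in each library (points), with the mean and SD of the 2 libraries of a group (line and bars). Treated libraries lie between 15.2% and 31.8% and untreated ones between 0% and 5.68%, with no overlap at any locus.

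edgeR's quasi-likelihood test on methylated and unmethylated reads, fitted over all 5654 loci, called all 5 loci higher with the enzyme on both days, where it called 98.8% of all loci on day 0 and 99.9% on day 1. The least certain of them was Gm41530, with changes of 4.58 ± 1.15 (SE) and 5.33 ± 0.87 on the log2 odds scale (adjusted p = 8.5e-05 and 1.8e-09). The log2 odds scale is the log2 of methylated over unmethylated reads. The median change was 3.55 over the members and 4.38 over all loci on day 0, and 5.33 and 5.51 on day 1. For a single locus the exact permutation test of 2 against 2 libraries cannot go below p = 0.333, the value at all 5 loci on both days.

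Among all loci the treated levels of the members were in the lower part. The median locus had 28.8% on day 0 and 30.2% on day 1, whereas the members lay between percentiles 3.36 (Gm41530) and 43.4 (E030030I06Rik) on day 0 and between 5.13 (Gm41331) and 36.4 (E030030I06Rik) on day 1. All 20 treated values of the 5 loci lay below the pooled level of their own library, which ran from 31.1% to 32.0%. The median locus lay below that level too on both days, so this is not particular to the members. The pooled level includes very deep sites: on day 0 treated sites over 100 reads had 48.1% and those with 3 reads 28.6%. The share of all loci below it was not counted. On day 0 the treated level at E030030I06Rik (26.8% to 29.0%) was above that at 2700054A10Rik (24.5% to 24.8%) in both libraries, while Gm41331 (21.3% to 25.8%) overlapped 2700054A10Rik, 4931408C20Rik and Gm41530. Of other deeply read loci, Sfi1, which encodes a centrosomal protein, had treated levels of 27.9% ± 0.31 and 29.7% ± 0.37 on day 0 and day 1. AY036118 had 60.5% ± 0.23 and 67.6% ± 0.10 (SD, n = 2 each). The differences from the members were not tested.

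Within 2700054A10Rik, the one locus with sites in every class of reads per site in all groups, the treated level differed little between classes. Its treated level on day 0 was 22.5% ± 0.43 at sites with 3 reads, 23.4% ± 0.06 at 4 to 10 reads, 24.7% ± 0.23 at 11 to 100 reads and 25.0% ± 1.53 at more than 100 reads (SD, n = 2). On day 1 the same classes had 24.4% ± 3.32, 26.8% ± 2.19, 26.9% ± 0.52 and 27.0% ± 1.88. The shallowest class had the lowest mean on both days, and on day 1 the gap was within the spread of the libraries. The level inside the 2511 bp stretch and in the rest of the locus was 24.7% ± 0.23 and 22.9% ± 0.95 on day 0 and 26.9% ± 0.66 and 25.8% ± 3.37 on day 1 in the treated libraries.

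Between the days, accessibility as read with the enzyme did not pass the test at any of the 5 loci, and edgeR called 0% of all 5654 loci in that comparison (176 with an unadjusted p under 0.05, and limma 0, with 70). The changes on the log2 odds scale were 0.16 ± 0.11 (SE) at 2700054A10Rik, 0.59 ± 0.59 at Gm41530, -0.08 ± 0.34 at Gm41331, 0.05 ± 0.29 at E030030I06Rik and 0.17 ± 0.44 at 4931408C20Rik. At 2700054A10Rik both treated libraries of day 1 were above both of day 0, by 2.14 percentage points on average (exact permutation p = 0.333). The median locus was higher on day 1 too, at 30.2% against 28.8%. Fitted on the 4 treated libraries alone, the change at 2700054A10Rik had an edgeR adjusted p of 0.0022, and 0.0388% of 7730 loci were called there. In data simulated on the same reads, edgeR found 35% of changes of 2 and 8% of changes of 1 on this scale. Those rates are over all 5654 loci, whose median was 3.11 reads per site, and do not carry over to 2700054A10Rik, the deepest of the members.

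Without the enzyme the levels of 2 members fell from day 0 to day 1. E030030I06Rik fell from 3.59% ± 0.91 to 0.44% ± 0.27 (SD, n = 2), by 3.0 ± 0.46 (SE) on the log2 odds scale (edgeR adjusted p = 2.2e-07). Gm41331 fell from 3.75% ± 2.73 to 0.80% ± 0.31, by 1.96 ± 0.58 (edgeR adjusted p = 0.026). In this comparison edgeR called 5.24% of all loci, 291 lower (5.15%) and 5 higher, and the median change over all loci was -1.0, in the direction of these members. 4931408C20Rik went from 2.53% ± 0.84 to 0.17% ± 0.23, a change of -3.05 ± 1.23 that missed the threshold in edgeR (adjusted p = 0.14) and passed it in limma (adjusted p = 0.014), which called 16.7% of loci. Gm41530 had 1 methylated read of 124 on day 0 and 2 of 276 on day 1, and the change was -0.16 ± 2.41. The call at Gm41331 rested on single libraries: without day 0 untreated replicate 2, the library at 5.68%, the change was -1.13 with an adjusted p of 0.54.

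The untreated level of 2700054A10Rik, which is set by its 2511 bp stretch, was not lower on day 1 on average, unlike that of the median locus. Its means were 2.22% ± 0.04 on day 0 and 2.40% ± 0.91 on day 1 (log2 odds change 0.07 ± 0.12, edgeR adjusted p = 0.80), which put it at percentile 61.5 of all loci on day 0 and 93.3 on day 1. Inside the stretch the untreated means were 2.22% ± 0.04 and 2.48% ± 0.94. In the rest of the locus, with far fewer reads, they were 2.11% ± 0.03 on day 0 and 0.94% ± 0.08 on day 1 (11 methylated of 520 reads and 15 of 1602), and the libraries of the 2 days did not overlap there. The change in the rest of the locus was not tested. The sign of the change over the whole locus was set by 1 library: without day 1 untreated replicate 1 it was -0.34 (edgeR adjusted p = 0.033, 2.81% of loci called) and without replicate 2 it was 0.46 (edgeR adjusted p = 7.6e-05, 2.84% called). With each library centred on its median locus the change was 1.10 ± 0.14 (edgeR adjusted p = 1.5e-11, 0.283% of loci called), that is, a rise relative to other loci. The day 1 untreated libraries were at 3.04% and 1.76%, a spread that this SE and p-value do not convey. Reads that cross several of the closely spaced sites are also counted at each. The centred fit was not repeated with 1 library left out. E030030I06Rik remained lower after centring (-2.03 ± 0.49, adjusted p = 0.016), and Gm41331 did not pass (-0.97 ± 0.59, adjusted p = 0.75).

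The difference of the 2 day effects, with the enzyme minus without it, passed the test at 1 of 5 loci, E030030I06Rik, against 3.57% of all loci, all of them upward. It was 3.05 ± 0.55 on the log2 odds scale (edgeR adjusted p = 9.0e-05), of which the untreated libraries gave -3.0 and the treated ones 0.05. limma gave 2.93 with an adjusted p of 0.051 and called 0.0177% of loci. The values at the other loci were 0.10 ± 0.16 at 2700054A10Rik, 0.75 ± 2.35 at Gm41530, 1.89 ± 0.67 at Gm41331 (adjusted p = 0.083) and 3.22 ± 1.30 at 4931408C20Rik (adjusted p = 0.15). The median of all loci was 1.10. With each library centred on its median locus, E030030I06Rik no longer passed (1.99, edgeR adjusted p = 0.17). 2700054A10Rik turned to -1.03 and passed (edgeR adjusted p = 0.00034), where 0.0884% of loci were called, all of them downward. The value at 2700054A10Rik rests on the same day 1 untreated libraries, whose spread its p-value does not convey. In percentage points E030030I06Rik gained 3.91 on this measure, with an exact two-sided permutation p of 0.11 (0.49 after Benjamini-Hochberg adjustment over 25 comparisons), where the design allows no less than 0.0556.

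The fall at E030030I06Rik was not confined to 1 site of its stretch. Of the 36 sites covered in all 8 libraries 17 had at least 1 methylated read in the untreated libraries of day 0 and 4 had on day 1. Without the enzyme 17 sites were lower on day 1 and 2 were higher. Methylated counts at the 36 sites were 25 and 12 in the untreated libraries of day 0 and 1 and 6 on day 1. The sites lie within 725 bp, so a read can cover several, and they are not independent replicates. With the enzyme 19 of these sites were higher and 16 lower on day 1, with medians of 28.1% and 26.7%. Neighbouring sites differed widely: the cytosine 6660 bp inside the gene had 0% on both days with the enzyme (0 of 16 and 0 of 17 reads), and the site 6656 bp inside had 50% and 64.7% on 16 and 17 reads. Reads were also uneven between strands: in all 8 libraries the plus strand had fewer than the minus strand, with ratios from 0.24 to 0.65, against 0.94 to 0.99 at Sfi1. Other loci with few sites were uneven too, with 0.065 to 0.42 at Gm41530 and 0.83 to 6.81 at Lars2. The part of this unevenness in the levels was not tested.

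With the 2 treated libraries pooled, the highest levels of single sites at Gm41331 on day 0 lay around the first annotated start. The margin over 2 sites further in was small, and distances are counted from that start. From 22 bp before to 33 bp after it, the 5 covered cytosines had between 37.5% and 41.9% methylated reads on day 0 (16 to 41 reads each). The 2 libraries differed: the site at the start had 26.3% in replicate 1 and 55% in replicate 2. The site 22 bp before it was covered in replicate 2 only. Between 34 and 120 bp after the start, a site reached 38.1% in replicate 1 and another 42.1% in replicate 2. The peak around the start is therefore not clear in either library alone. The site 25 bp before the start had 21.1% (19 reads), the covered sites from 34 to 120 bp after it had between 7.5% and 34.1%, and further into the gene the sites at 136 and 178 bp had 36.7% and 36.4% (30 and 11 reads). On day 1 the same 5 had between 18.6% and 49.0%, and the site at the start itself had 41.0% on day 0 and 49.0% on day 1 (39 and 51 reads). In the printed window the mean levels were 3.36% ± 1.67 and 24.5% ± 1.93 on day 0 and 0.88% ± 0.26 and 21.8% ± 0.44 on day 1 (untreated and treated, SD, n = 2). The window of 4931408C20Rik had 19.0% ± 11.1 and 35.0% ± 4.34 with the enzyme on day 0 and day 1. Its treated libraries were at 26.8% and 11.1% on day 0 (97 and 36 reads) and at 38.1% and 31.9% on day 1 (113 and 47 reads), so they did not overlap, and the difference was not tested.

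**Figure D3:**
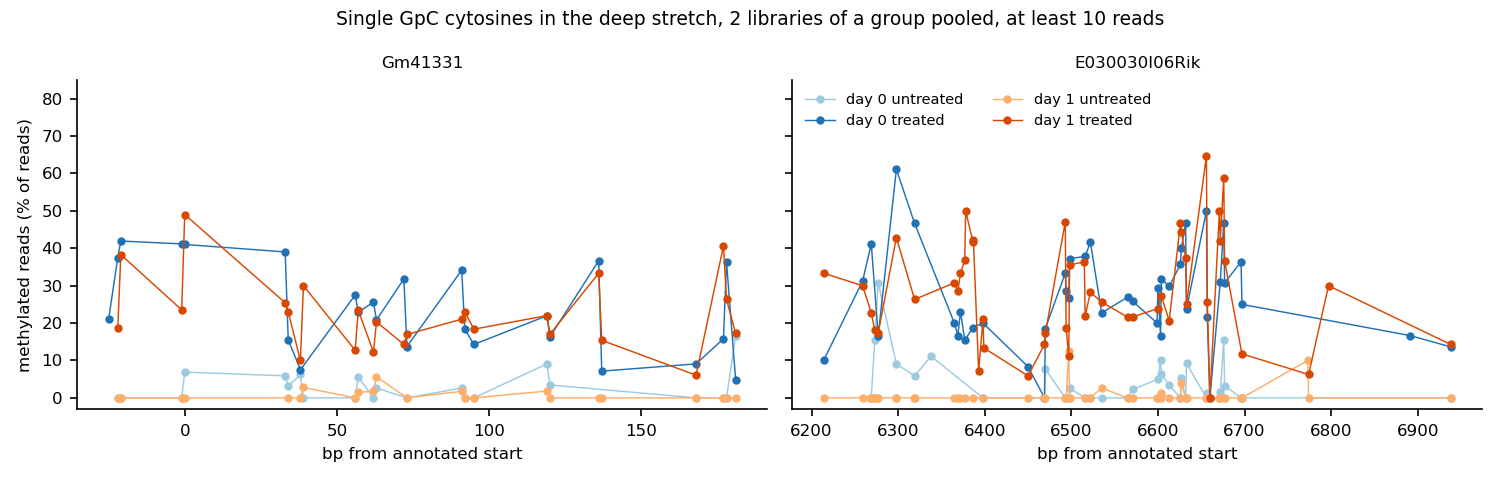
Percent methylated reads at single GpC cytosines in the deep stretches of Gm41331 and E030030I06Rik against distance from the annotated start in bp, with the 2 libraries of each group pooled and sites of at least 10 reads shown. Treated levels vary from 0% to 64.7% between neighbouring sites of E030030I06Rik, and the day 1 untreated line is at 0% at most sites of both loci.

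The covered GpC dinucleotides of the 2700054A10Rik stretch were regularly spaced. Of 363 distances of up to 50 bp between a covered dinucleotide and the next, 62.0% were 5 bp, 30.3% were 9 bp and 4.96% were 14 bp. Over all covered sites of the autosomes, X and Y the same distances made up 8.77%, 4.84% and 2.94% of 90624. In E030030I06Rik, with 24 distances, 20.8% were multiples of 5 bp, against 63.4% in 2700054A10Rik and 20.9% over all sites. Sites of the 2700054A10Rik stretch were also missing more often than at Sfi1. Among sites that lay between deep neighbours on the same strand, between 9.5% and 15.4% were not listed in a library, against 1.4% to 2.8% at Sfi1. This was not particular to the stretch: Gm41331 had 5.9% to 23.1% in libraries with at least 13 such sites. E030030I06Rik had 0% to 10%. The sequence of the stretch is not printed.

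**Figure D4:**
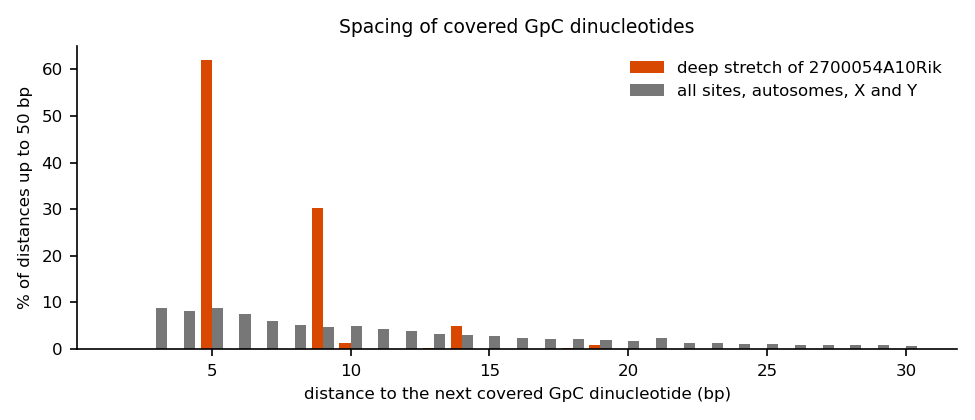
Distance in bp from each covered GpC dinucleotide to the next, as percent of all distances up to 50 bp, in the deep stretch of 2700054A10Rik and over all sites. The 2700054A10Rik distances pile up at 5 bp (62.0%) and 9 bp (30.3%), where all sites have 8.77% and 4.84%.

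Within that stretch the sites had nearly the same level. Among sites with at least 20 reads in a treated library, the variance between sites was between 0.95 and 1.17 times what counting error alone gives, against 1.72 to 1.94 at Sfi1. On day 1 the treated libraries had 10th and 90th percentiles of 17.5% and 37.9% (replicate 1) and 18.2% and 37.1% (replicate 2). Site levels hardly repeated between libraries: across sites, Pearson's r between the treated replicates was 0.15 on day 0 (361 sites) and 0.02 on day 1 (261 sites), where Sfi1 had 0.42 (277 sites) and 0.51 (433 sites) and all other nuclear sites of that depth 0.86 and 0.88. These correlations run over sites that share libraries and reads, and sites are not independent replicates. In a fit of single sites, 142 of the 1648 sites with at least 20 reads in every library lay in this stretch and 3 in that of E030030I06Rik. edgeR called 0 of them between the days in the treated libraries (4 with an unadjusted p under 0.05 in 2700054A10Rik), where 0.243% of all such sites were called, and 0 in the untreated libraries (10 and 1 unadjusted), where 0.303% were.

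**Figure D5:**
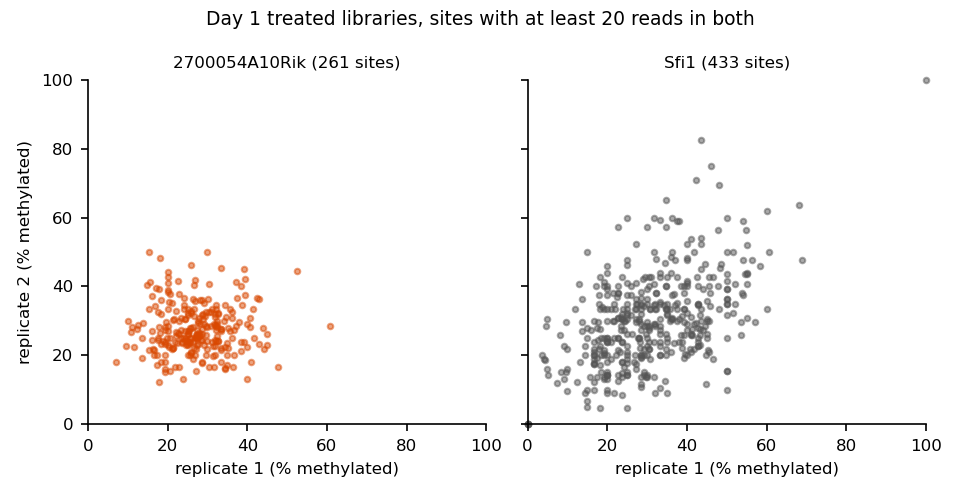
Percent methylated reads of single sites in day 1 treated replicate 1 against replicate 2, for sites with at least 20 reads in both, in 2700054A10Rik (261 sites) and Sfi1 (433 sites). The 2700054A10Rik sites form a round cloud (r = 0.02), and the Sfi1 sites spread along the diagonal (r = 0.51).

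The share of a library's read counts that fell on 2700054A10Rik was lower on day 1. Read counts are summed over listed sites, so a read that crosses several sites is counted at each. Shares are therefore not shares of sequenced reads. The locus took 1.16% ± 0.20 of the counts in the untreated and 1.30% ± 0.04 in the treated libraries of day 0. On day 1 it took 0.415% ± 0.002 and 0.569% ± 0.034 (SD, n = 2). Reads over the locus fell too, from between 19347 and 28341 on day 0 to between 14598 and 17295 on day 1, while the libraries of day 1 held more reads in all. Some other deeply read loci also took a smaller share on day 1: AY036118 went from 0.319% to 0.153% untreated and from 0.230% to 0.168% treated, and Cmss1 from 0.0604% to 0.0333% and from 0.0478% to 0.0331%. Sfi1 took 3.77% and 3.41% on day 0 and 2.70% and 3.04% on day 1, and Sp140 went from 0.0855% to 0.0972% and from 0.0943% to 0.110%. These differences between loci were not tested. At Gm41331 the share was between 0.0153% and 0.0215% in all 4 group means. Day and library depth cannot be told apart here, since all day 1 libraries were the larger ones.

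The loci most like each member in level over the 8 libraries were sought among loci that are nearly all shallow. By root mean square difference in log2 odds over 5622 loci, the 2 nearest were Tnks1bp1 (0.13) and Gli2 (0.24) for 2700054A10Rik, and Fn1 (0.20) and Nrxn3 (0.25) for E030030I06Rik. Gli2 is a transcription factor of Hedgehog signalling and Fn1 encodes fibronectin of the extracellular matrix. For 4931408C20Rik they were Bmp6 (0.20), a bone morphogenetic protein, and Grm8 (0.23), for Gm41331 Gm29677 (0.17) and Sec14l1 (0.19), and for Gm41530 Nfam1 (0.33) and 4930573H18Rik (0.34). All 10 had between 3.04 and 3.22 reads per site, where the median locus had 3.11 and the 99th percentile was 4.19.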

How the data were processed

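NOMe-seq was measured in 8 libraries, 2 in each of 4 groups (day 0 or day 1, with or without M.CviPI). Per the submitters' processing notes the build was mm10; aligner, caller, duplicate handling and site filter are each not given in the sources used here. Per site, the authors deposited for each library the fraction of methylated reads with 2 decimals and the count of reads, at least 3 at each site; both units were read from the values. The product of fraction and count, rounded, gave methylated reads (whole within rounding at 100% of sites). With 2 decimals this check cannot fail at sites of more than 100 reads, where the methylated reads are approximate.

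Read counts of sites were summed per gene locus (1000 bp flanks), so a read over several sites was counted at each of them. Loci with at least 20 reads in every library were fitted with edgeR 4.0.16 (quasi-likelihood, methylated and unmethylated counts, all 8 libraries, Benjamini-Hochberg threshold 0.05) in R 4.3.3; limma 3.58.1 on log2((methylated + 1)/(unmethylated + 1)) was an alternative. The locus fit was tested on simulated data for the treated day comparison only, with 2 false calls among 5654 loci. Levels were compared by exact permutation in Python 3.11.15 with scipy 1.17.1. Named genes were the 5 members, overlapping and nearest genes, other deeply read loci and the 2 loci most like each member. The members and lists were chosen with earlier results of these data known. Deep stretches, spacing, strand, missing sites, agreement between sites and the single-site fit were added after the positions and depths were seen.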

Additional observations from a re-analysis of the deposited data

Results flagged for a closer look

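E030030I06Rik was the 1 member whose day effect differed between libraries with and without the enzyme: the difference was 3.05 on the log2 odds scale (edgeR adjusted p = 9.0e-05), and the untreated level was lower on day 1 in 2 of 2 libraries. With each library centred on its median locus it was 1.99, with an adjusted p of 0.17. With 2 libraries a group, no single library could be tested as standing apart.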

How the results depend on the processing

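Counts of members called, of 5 in edgeR, were as follows where they moved. Centring takes the enzyme effect of the median locus out of every locus: it gave 0 members on day 0 (39 of 5654 loci called) and 1 on day 1 (32 of 5654), 2700054A10Rik, which then lay lower with the enzyme. Only 3 members could be tested on sites covered in all 8 libraries, and all 3 were called on both days, as were all 61 loci of that setting. For treated libraries between the days, the libraries of the contrast alone gave 1 in place of 0 (3 of 7730 loci). For untreated libraries, 1 was called in place of 2 with the libraries of the contrast alone (18 of 7502 loci), with sites of at least 5 reads (5 of 75) and with sites covered in all 8 (5 of 61), and 0 with gene end windows (0 of 43, 6 with an unadjusted p under 0.05), where E030030I06Rik could not be tested; leaving out 1 library gave 1 to 2. The difference of the day effects gave 0 with limma (1 of 5654 loci) and with gene end windows (0 of 43, 7 unadjusted), and 1 to 2 with 1 library left out. The cause was not tested beyond the fewer sites or libraries these settings hold.

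Signs turned as follows. With centring, which shifts all loci of a library alike, the enzyme effect was -0.58 at Gm41331, -0.43 at E030030I06Rik and -0.21 at 4931408C20Rik on day 0 and -0.97 at 2700054A10Rik on day 1 (adjusted p = 2.3e-09); the treated day change at E030030I06Rik was -0.039, the untreated one at Gm41530 0.90, and the difference -1.03 at 2700054A10Rik (adjusted p = 0.00034) and -0.40 at Gm41530. Treated changes on sites in all 8 libraries were 0.082 (Gm41331) and -0.036 (E030030I06Rik), with at least 5 reads -0.024 (E030030I06Rik), and without flanks 0.013 (Gm41331) and -0.075 (4931408C20Rik). The untreated change at 2700054A10Rik was -0.017 without sites over 100 reads and -0.0071 on sites in all 8, and its difference at gene ends -1.11. With 1 library left out, treated changes ran from -0.25 to 0.11 (Gm41331), -0.047 to 0.15 (E030030I06Rik) and -0.085 to 0.45 (4931408C20Rik), untreated ones from -0.34 to 0.46 (2700054A10Rik) and -0.60 to 1.87 (Gm41530), and differences from -0.30 to 0.50 and -1.28 to 1.19. The fall at E030030I06Rik ran from -3.80 to -2.53, past the threshold each time (adjusted p up to 0.0018).

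In the fit with a replicate block, 5 members were called for the enzyme on both days, 0, 2 and 1 in the treated, untreated and difference comparisons, as without it. That fit called 217 loci in place of 296 between untreated libraries and 136 in place of 202 for the difference. Deviations of same-numbered libraries were not correlated over loci (from -0.024 to 0.019). At this depth counting error could hide a shared deviation, so pairing is not excluded. The block changed no call of a member.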
